A study of Mus musculus with 6 samples.

Results

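The interleukin-1 family genes described here are 9 mouse genes: the agonist ligand genes Il1f9 (which encodes interleukin-36 gamma), Il1a, Il1b, Il18 and Il33, the antagonist ligand gene Il1rn, and the receptor genes Il1r1, Il1rl2 and Il1rap. They were chosen by name, with results of the tyramine-against-control comparison already known, and are 9 of the 24786 gene rows in the count table. Their differences between the groups are therefore given as a description and without a p-value. RNA sequencing was carried out on intestinal organoids, cultured epithelial structures grown from gut stem cells, of wild-type (WT) genotype. After dissociation into single cells over 10 min, 3 libraries were made from cultures kept for 16 h with 100 µM tyramine (TA100 in the titles), a bacterial breakdown product of tyrosine. The other 3 libraries were controls, whose titles name DMSO, a solvent, while the design text speaks of control medium. The sources used here do not state whether DMSO was also added with tyramine, nor the mouse strain and age, the part of the intestine, or whether replicates came from separate animals or cultures, so the spread below is that between these libraries and may be technical.

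Interleukin-1 family cytokines are alarm signals. Interleukin-1 alpha and beta bind the receptor chain IL1R1, and the agonist interleukin-36 cytokines bind IL1RL2. Both receptor chains then recruit the shared accessory chain IL1RAP, which brings the adaptor MYD88 and activates NF-kB. Interleukin-18 has receptor genes of its own, Il18r1 and Il18rap. IL1RN, the interleukin-1 receptor antagonist, occupies IL1R1 without signalling. Interleukin-1 beta and interleukin-18 are made as inactive precursors that caspase-1 cuts inside inflammasomes, while interleukin-1 alpha and interleukin-33 can be released from damaged epithelial cells.

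The library totals ran from 28316372 to 35035955 counts, and values are given as counts or as CPM, counts per 1000000 counts of a library size adjusted by a TMM factor, a correction for RNA composition. A floor of 3 counts corresponds to 0.0822 to 0.106 CPM in single libraries, for counting error only. Counts were above 0 for 17057 symbols and sufficient for testing in 12139. Epithelial markers were abundant in every library, with a summed level of 15900 to 17300 CPM in controls and 14400 to 15900 with tyramine. Of 17 immune cell markers 3 had enough counts to be tested, the sum was 8.7 to 12.3 CPM in controls and 9.93 to 12.1 with tyramine, and Tyrobp, S100a8, Cd79a and Ms4a1 had 0 counts in all 6 libraries. Fibroblast and smooth muscle markers summed to 11.3 to 11.5 CPM in controls and 9.74 to 10.7 with tyramine, endothelial markers to 0.386 to 1.25 and 0.209 to 2.61, and a short list of stromal and mast cell markers to 0.245 to 2.14 and 0.0629 to 0.209, with the mast cell gene Cpa3 at 0. In bulk RNA, fewer cells of a type and less RNA per cell cannot be told apart, and this holds for each result below.

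Both the antagonist gene Il1rn and the agonist gene Il1f9 lie in the ligand cluster of chromosome 2, on the plus strand, with annotated starts 150 kb apart. The 250 bases before the RefSeq start are shown for this pair, which differed between the groups in opposite directions, for Il1a, the other member with a match to the AP-1 motif, and for Il18, the other member that was lower with tyramine. Sequences are from the RefSeq promoter table, build GRCm38.p6, printed 5′ to 3′ on the gene's strand, with motif matches in capitals.
Il1f9, chr2:24186226-24186475, plus strand: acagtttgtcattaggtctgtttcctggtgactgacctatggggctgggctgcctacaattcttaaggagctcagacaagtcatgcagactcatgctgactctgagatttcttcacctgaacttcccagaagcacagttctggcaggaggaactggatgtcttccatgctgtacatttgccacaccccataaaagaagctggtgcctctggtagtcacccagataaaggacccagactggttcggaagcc
Il1rn, first of 3 listed starts, chr2:24336610-24336859, plus strand: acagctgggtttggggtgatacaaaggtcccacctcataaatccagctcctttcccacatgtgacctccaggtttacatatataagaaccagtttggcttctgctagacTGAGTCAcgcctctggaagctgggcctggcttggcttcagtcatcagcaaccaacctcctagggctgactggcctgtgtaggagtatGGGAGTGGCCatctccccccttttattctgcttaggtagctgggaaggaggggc
Il1a, chr2:129309973-129310222, minus strand: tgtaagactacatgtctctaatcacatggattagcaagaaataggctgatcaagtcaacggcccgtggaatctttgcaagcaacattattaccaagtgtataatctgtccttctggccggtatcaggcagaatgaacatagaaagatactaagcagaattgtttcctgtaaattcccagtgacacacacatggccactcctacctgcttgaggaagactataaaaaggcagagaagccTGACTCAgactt
Il18, chr9:50554450-50554699, plus strand: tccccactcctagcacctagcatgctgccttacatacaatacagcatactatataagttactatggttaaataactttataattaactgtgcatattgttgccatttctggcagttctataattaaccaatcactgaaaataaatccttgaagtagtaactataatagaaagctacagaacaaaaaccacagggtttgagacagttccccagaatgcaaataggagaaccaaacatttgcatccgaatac

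The motifs searched on both strands were TGANTCA for AP-1, GGG and CC with 5 bases of any kind between them for kappa B and TGACNNNGC for the core of the antioxidant response element. All 9 members matched the table, with 13 windows in all. Il1rn had TGAGTCA 141 bases before its first start and GGGAGTGGCC, a kappa B match, 54 bases before it. Il1a had TGACTCA 12 bases before its start, and the windows of Il1f9, Il18, Il33, Il1b and Il1rl2 held none of the 3 motifs. Among 32851 windows of 250 bases in the table, 6.75% held the AP-1 motif, 45.8% the kappa B motif and 10.2% the antioxidant response core, so the kappa B letters are common. The third start of Il1rn had 1 kappa B match, the second start of Il1r1 had 1, and the window of Il1rap had 6, some of which overlap each other. These matches describe the sequence alone, and no binding was measured.

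Il1rn was the most abundant member in controls. The gene (ENSMUSG00000026981, GRCm38 chromosome 2, 24336853 to 24351494, plus strand, protein-coding) was counted 15112, 16561 and 14210 times in the controls, replicates 1 to 3, against 4237, 4763 and 3202 times in the tyramine libraries. All 3 tyramine libraries lay far below all 3 controls. Its mean level was 483 ± 25.3 CPM in controls and 137 ± 22.1 CPM with tyramine (SD, n = 3 per group), a fitted log2 fold change of -1.82 (SE 0.13), or 3.53-fold lower. The coefficient of variation of Il1rn was 5.24% in controls and 16.1% with tyramine, against medians of 15.9% and 28.4% over all genes tested, below the typical spread in each group. Leaving out any 1 library gave log2 fold changes of -1.89 to -1.69.

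Il1f9 went the other way, from near absence to a level comparable with the antagonist per kb of merged exon, but lower in counts. Interleukin-36 gamma is an agonist known mainly from keratinocytes and other barrier epithelia. The gene (ENSMUSG00000044103, chromosome 2, 24186476 to 24193568, plus strand, protein-coding) was counted 0, 0 and 24 times in the controls, replicates 1 to 3, against 892, 1360 and 1469 times in the tyramine libraries. The groups did not overlap, and all control counts came from replicate 3. Mean levels were 0.281 ± 0.486 and 41.8 ± 9.85 CPM, with a fitted log2 fold change of 7.28 (SE 1.08), or 156-fold higher. Without control replicate 3 the remaining controls were at 0, and against a floor of 3 counts per library the tyramine level was at least 462-fold higher. That bound holds only if counts are independent of each other, which is not known here because 72.6% to 78.7% of values from 1 to 8 per library were even numbers and the counting rule is not given.

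**Figure D1:**
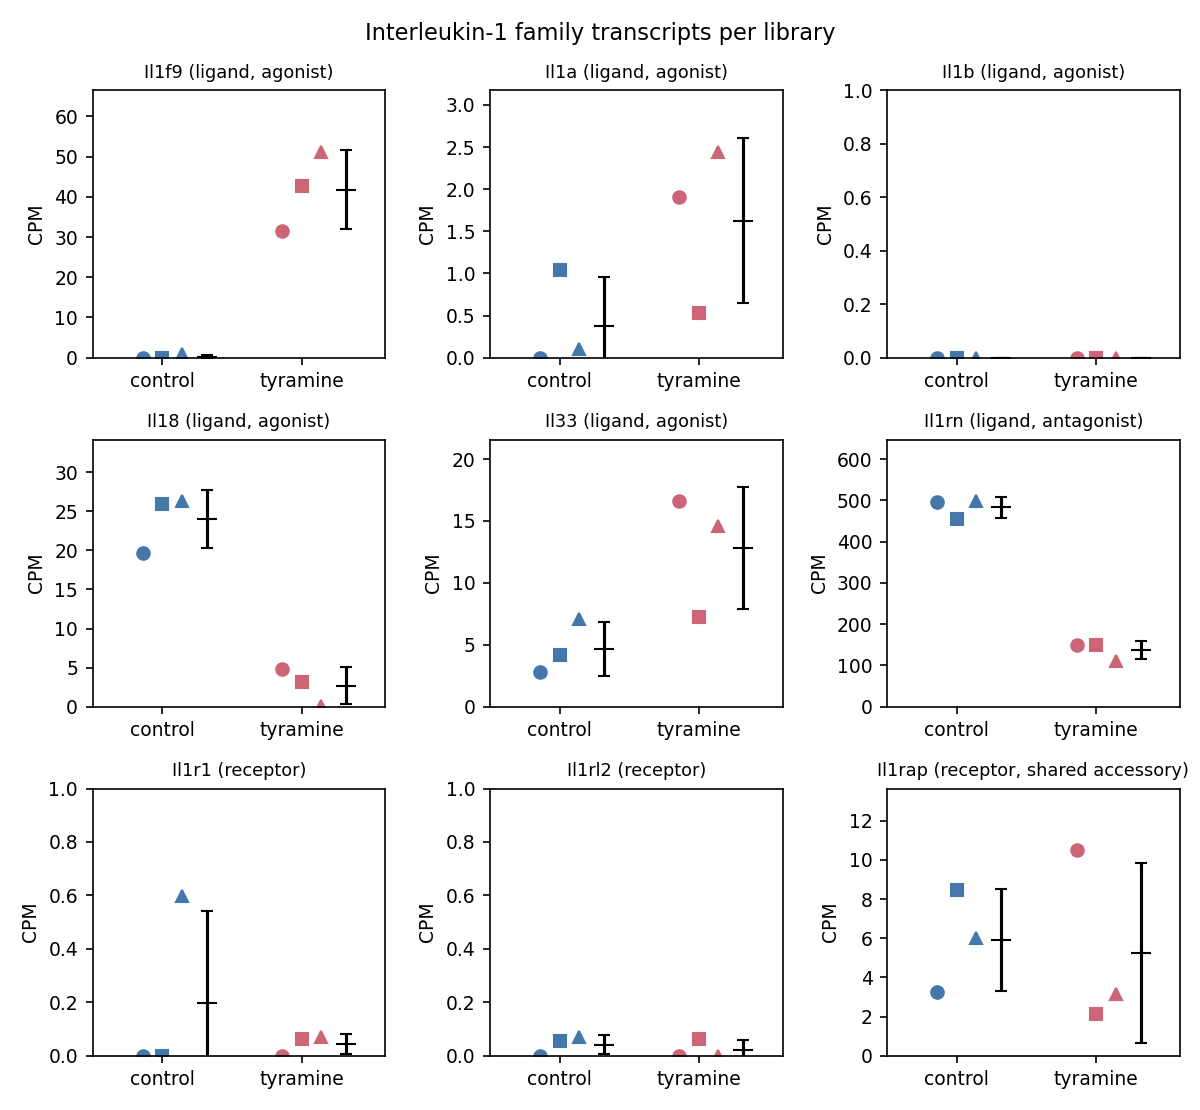
Level of each of the 9 interleukin-1 family genes in CPM (linear axis, scaled separately in each panel) by group; circles, squares and triangles are replicates 1, 2 and 3, and black marks are the mean with SD of 3 libraries. Il1rn and Il18 are lower and Il1f9 and Il33 higher in every tyramine library than in any control, while Il1b is at 0 in all 6 libraries.

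Il18, a cytokine that gut epithelium makes constitutively, was also lower with tyramine. The gene (ENSMUSG00000039217, chromosome 9, 50554827 to 50581840, plus strand, protein-coding) was counted 598, 944 and 750 times in the controls against 137, 99 and 4 times in the tyramine libraries, replicates 1 to 3. The groups did not overlap, and tyramine replicate 3 stood far below the other two. Mean levels were 23.9 ± 3.71 and 2.69 ± 2.37 CPM, 8.87-fold lower by the fit (log2 fold change -3.15, SE 0.833). Without tyramine replicate 3 the log2 fold change was -2.59, and without tyramine replicate 1 it was -3.87.

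Il33, a nuclear alarm cytokine of barrier cells, had low to moderate counts. The gene (ENSMUSG00000024810, chromosome 19, 29925114 to 29960718, plus strand, protein-coding) was counted 84, 153 and 201 times in the controls against 470, 231 and 420 times with tyramine. In CPM the highest control, 7.05 in replicate 3, lay just under the lowest tyramine library, 7.26 in replicate 2. Mean levels were 4.67 ± 2.18 and 12.8 ± 4.91 CPM, with a log2 fold change of 1.46 (SE 0.501), and leaving out any 1 library gave 1.18 to 1.87.

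The classical agonist genes were scarce. Il1a (ENSMUSG00000027399, chromosome 2, 129299610 to 129309972, minus strand, protein-coding) was counted 0, 38 and 3 times in the controls against 54, 17 and 70 times with tyramine, so control replicate 2 exceeded tyramine replicate 2 and the groups overlapped. Its levels were 0.382 ± 0.573 and 1.62 ± 0.981 CPM, and the log2 fold change of 2.06 had an SE of 1.55, rising to 4.85 without control replicate 2. Exons of Il1a overlap the antisense gene Gm14023, so its counts are uncertain without a stated strand setting. Il1b (ENSMUSG00000027398, chromosome 2, 129364570 to 129371139, minus strand, protein-coding), the agonist best known from myeloid cells, had 0 counts in all 6 libraries. For counting error only, this allows a level of up to 0.0822 to 0.106 CPM in single libraries. Exons of Il1b overlap those of Il1bos on the other strand. With the strand setting and counting rule not stated, the 0 and this bound are uncertain too.

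Receptor transcripts were at or near the limit of detection, apart from the shared chain. Il1rap (ENSMUSG00000022514, chromosome 16, 26581704 to 26730117, plus strand, protein-coding) was counted 99, 309 and 171 times in the controls against 298, 67 and 90 times with tyramine. The groups overlapped, at 5.91 ± 2.61 and 5.25 ± 4.59 CPM, and the log2 fold change was -0.17 (SE 0.697); its exons overlap those of Gm20319 on the other strand. Tyramine replicate 1 alone held 298 of the 455 tyramine counts, and without it the log2 fold change was -1.17. Il1r1 (ENSMUSG00000026072, chromosome 1, 40225080 to 40317257, plus strand, protein-coding), the signalling receptor for interleukin-1 alpha and beta and the binding target of the antagonist, was counted 0, 0 and 17 times in the controls against 0, 2 and 2 times with tyramine. Il1rl2 (ENSMUSG00000070942, chromosome 1, 40324610 to 40367562, plus strand, protein-coding), the receptor for interleukin-36 gamma, was counted 0, 2 and 2 times in the controls against 0, 2 and 0 times with tyramine. Both Il1rl2 group means were under the floor, so no fold is given, and a difference in Il1r1 or Il1rl2 was not detectable at this depth.

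In the fit across all genes (quasi-likelihood test of edgeR, threshold an adjusted p under 0.05 by Benjamini-Hochberg), 6 of the 9 members had enough counts to be tested and 3 passed: Il1f9 higher, Il1rn and Il18 lower. Over all 12139 genes tested, 25.8% passed, 12.5% rising and 13.3% falling. The groups did not overlap for 4 of the 6 tested members (the same 3 and Il33), and for 44.5% of all genes tested. As the members were named with these differences in view, nothing is read from their count. The 6 log2 fold changes had a median of 0.64, with 3 above and 3 below 0, beside a median of 0 over all genes tested. Of the 3, Il18 lost its call when any 1 control library or tyramine replicate 2 was left out, and Il33 gained one without tyramine replicate 2 and with DESeq2.

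Levels can be compared between members only per length. In CPM per kb of merged exons of all annotated GENCODE transcripts, controls ranked Il1rn first at 87.3 ± 4.54 (SD, n = 3), then Il18 at 23.2 ± 3.59, Il33 at 1.62 ± 0.757 and Il1rap at 0.52 ± 0.229. The control libraries of these 4 did not overlap from one gene to the next. Below them came Il1a at 0.193 ± 0.29, Il1f9 at 0.17 ± 0.295 and Il1r1 at 0.0312 ± 0.0541, which overlapped each other, and both Il1a and Il1f9 also overlapped Il1rap. Il1rl2 was at 0.00611 ± 0.00541 and Il1b at 0. With tyramine the top of the order changed to Il1f9 at 25.4 ± 5.97 and Il1rn at 24.7 ± 4.02, which did not differ beyond their spread, followed by Il33 at 4.44 ± 1.7 and Il18 at 2.61 ± 2.3, which also overlapped. Il1a at 0.825 ± 0.498 and Il1rap at 0.462 ± 0.403 overlapped too, and each overlapped Il18, whose lowest tyramine library was at 0.135. Il1r1 and Il1rl2 were at 0.00694 ± 0.00603 and 0.00308 ± 0.00533. The per-length ratio of Il1rn to Il1f9 was 176 in control replicate 3, the only control with Il1f9 counts. It was 1.41, 1.04 and 0.647 in tyramine replicates 1 to 3. Merged exons span 5535 bases in Il1rn and 1648 in Il1f9, so this likeness depends on the length chosen. The ratio of their counts, not corrected for length, was 4.75, 3.5 and 2.18 in these tyramine libraries. Il1rn thus stayed above Il1f9 in counts, but not in every library per length. The per-length ratio of Il18 to Il33 was 20, 17.3 and 10.4 in control replicates 1 to 3 and 0.814, 1.2 and 0.0267 with tyramine, so it was lower in every tyramine library than in any control.

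**Figure D2:**
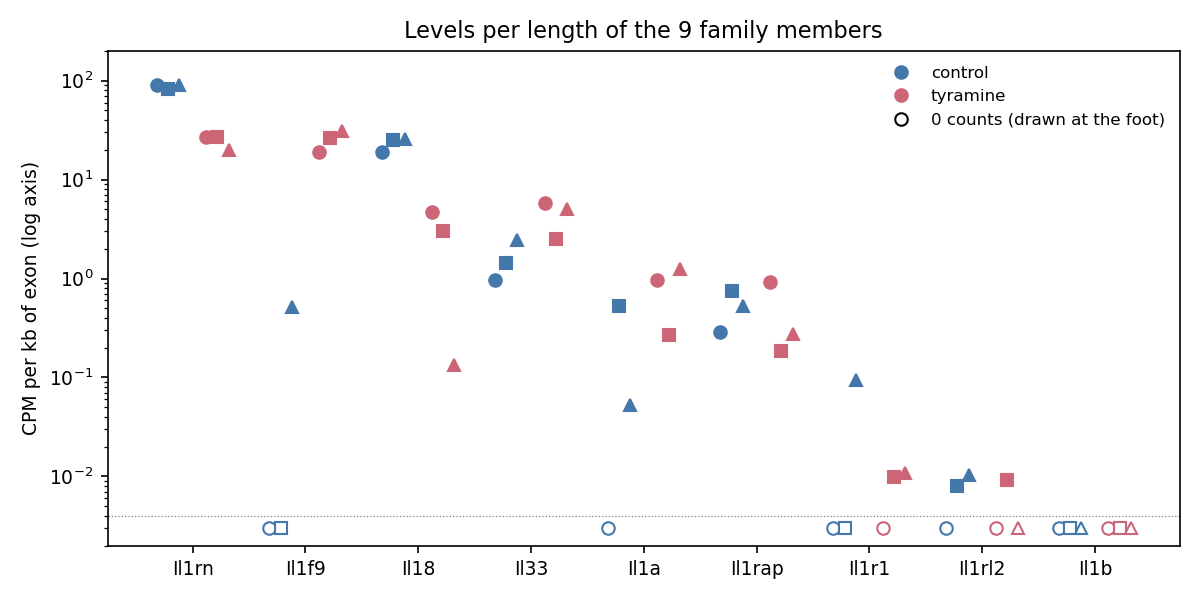
CPM per kb of merged exon (log axis) for the 9 members in each library, controls in blue and tyramine in red; circles, squares and triangles are replicates 1, 2 and 3, and open symbols under the dotted line mark 0 counts. Il1rn leads in controls, and with tyramine Il1f9 reaches the level of Il1rn per kb of merged exon, though not in counts.

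The makeup of the family's transcripts differed accordingly. Counts of the 9 genes together were 15893, 18007 and 15378 in the controls, replicates 1 to 3, against 6088, 6541 and 5257 with tyramine. The antagonist gene Il1rn held 95.1%, 92% and 92.4% of them in controls and 69.6%, 72.8% and 60.9% with tyramine. Il1f9 held at most 0.156% in a control library and 14.7%, 20.8% and 27.9% with tyramine. These shares are of counts, not corrected for gene length, and describe single libraries. The summed level was 493 to 539 CPM in controls and 183 to 215 CPM with tyramine.

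The genes between Il1f9 and Il1rn in the chromosome 2 cluster were silent at this depth. Il1f6, Il1f5 and Il1f10, which encode interleukin-36 alpha, the interleukin-36 receptor antagonist and interleukin-38, lie between them in that order, and each had 0 counts in all 6 libraries. Il1f8, which encodes interleukin-36 beta and lies on the other side of Il1f9, also had 0 counts in all 6. Of these 6 ligand genes Il1f9, higher with tyramine, and Il1rn, lower, were the 2 with counts. In the receptor cluster of chromosome 1, Il1r2, which encodes a decoy receptor, had 0 counts in all 6 libraries. Il1rl1, the interleukin-33 receptor gene, had 2 counts in tyramine replicate 3 and none elsewhere. The interleukin-18 receptor genes Il18r1 and Il18rap had 24 counts in control replicate 1 with 2 in tyramine replicate 2, and 9 counts in tyramine replicate 2, respectively. Of the other family genes sought, Il18bp, which encodes a soluble inhibitor of interleukin-18, was counted 0, 20 and 7 times in the controls against 3, 9 and 72 times with tyramine. Sigirr, an inhibitory receptor of gut epithelium, was the only further family receptor with enough counts to be tested and did not pass (5.4 ± 3.21 and 6.17 ± 0.828 CPM, log2 fold change 0.19; edgeR adjusted p = 0.86).

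Genes of cytokine processing changed in both directions. Of 18 tested genes of inflammasomes and cytokine processing, 2 rose and 8 fell, while 8 did not pass, beside 12.5% rising and 13.3% falling over all genes tested. The median log2 fold change of the 18 was -0.87. Naip1, a sensor of bacterial proteins, fell from 195 ± 9.19 to 73 ± 9.07 CPM (log2 fold change -1.42; edgeR adjusted p = 4.3e-05). Naip5 and Naip6, picked after their values were seen, fell too, but these closely similar copies may share reads. Naip2 of the same list did not pass (80.5 ± 9.61 and 89.9 ± 24.4 CPM, log2 fold change 0.16, edgeR adjusted p = 0.62). Nlrp6, an inflammasome sensor of gut epithelium, went from 280 ± 5.11 down to 153 ± 7.04 CPM, 1.84-fold (edgeR adjusted p = 0.00013). Serpinb1a, an inhibitor of neutrophil proteases, fell 1.82-fold (edgeR adjusted p = 0.00036). Capn2, a calpain subunit gene whose enzyme class cuts the interleukin-1 alpha precursor, rose 1.83-fold (edgeR adjusted p = 0.00012).

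The remaining genes of that list named here were picked after their values were seen. Pycard, the adaptor that joins sensors to caspase-1, was counted 490, 521 and 292 times in the controls against 23, 0 and 2 times with tyramine (log2 fold change -5.53, SE 1.13; edgeR adjusted p = 0.0056). All 3 tyramine libraries were far below the controls. The size of the fold rests on these few tyramine counts, and the log2 fold change was -8.5 without tyramine replicate 1 and -4.93 without tyramine replicate 2. Gsdmd, the pore protein through which mature cytokines leave the cell, fell 2.94-fold (edgeR adjusted p = 0.0011), and Gsdme, a related pore protein cut by caspase-3, rose 3.32-fold (edgeR adjusted p = 0.0079). Casp1, the protease that matures interleukin-18, averaged 113 ± 2.69 and 81.8 ± 24.3 CPM and did not pass (log2 fold change -0.46; edgeR adjusted p = 0.12), although it passed without tyramine replicate 2 (log2 fold change -0.67). Casp8 passed with a small log2 fold change of -0.3 (edgeR adjusted p = 0.041), a call lost without a filter on low counts and on leaving out each library but tyramine replicate 3.

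Of 21 tested receptor-proximal signalling genes, 6 rose and 1 fell, while 14 did not pass, and the median log2 fold change was 0.42. Over all genes tested 25.8% passed, 12.5% rising and 13.3% falling. Ikbkg, the regulatory subunit of the IkB kinase, went from 58.3 ± 5.19 up to 196 ± 7.57 CPM, 3.36-fold (edgeR adjusted p = 7.3e-06). Tollip, an adaptor that restrains IRAK1, rose 2.32-fold (edgeR adjusted p = 0.00031) and the kinase genes Mapk9 and Mapkapk2 rose 2.62-fold and 1.64-fold (edgeR adjusted p = 0.005 and 0.016). Irak1, picked after its value was seen as the only falling gene, fell 1.62-fold (edgeR adjusted p = 0.037). The adaptor gene Myd88 did not pass, at 12.9 ± 2.01 and 18.5 ± 6.51 CPM. The rising genes numbered 3 without control replicate 1 or 3, Mapkapk2 losing its call in both cases, and Irak1 was not past the threshold without control replicate 1 or 2 or without tyramine replicate 1 or 2.

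Among 15 tested NF-kB genes and feedback inhibitors, 4 rose and 0 fell, while 11 did not pass, a share passing near the 25.8% of all genes tested. The median log2 fold change was 0.19. Nfkbib, an inhibitor of NF-kB, rose 1.67-fold, the deubiquitinase gene Cyld 1.69-fold, Tnfaip3, which encodes the feedback inhibitor A20, 2.02-fold, and Rela, the p65 subunit, 1.96-fold (edgeR adjusted p = 0.0085, 0.009, 0.015 and 0.033). Several of these calls were lost under other settings: Tnfaip3 was lost without control replicate 1 or 2, Cyld without control replicate 3, and Rela without control replicate 2 or 3, tyramine replicate 3 or with library totals as the only scaling, and 2 genes rose without control replicate 2. Of 23 cytokine, chemokine and other genes known to respond to interleukin-1 or interleukin-36, only 3 had enough counts to be tested. Ptgs2, the inducible cyclooxygenase, rose (0.625 ± 0.582 to 195 ± 46.2 CPM, log2 fold change 8.21, or 9.02 without control replicate 2; edgeR adjusted p = 2.6e-05) and Cxcl16 rose 1.44-fold (edgeR adjusted p = 0.009), while Lif did not pass (log2 fold change 0.35). The chemokine and cytokine genes Cxcl1, Cxcl2, Ccl20, Il6, Csf2 and Csf3 had at most 29 counts in any library, and Cxcl1 had 0 in all 3 tyramine libraries. Others of the list went higher in single libraries, Cxcl5 with 51 counts in tyramine replicate 1 and Tnf with 110 in tyramine replicate 3. Without control replicate 1, 1 of the 23 genes rose, and Cxcl16 was not past the threshold.

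**Figure D3:**
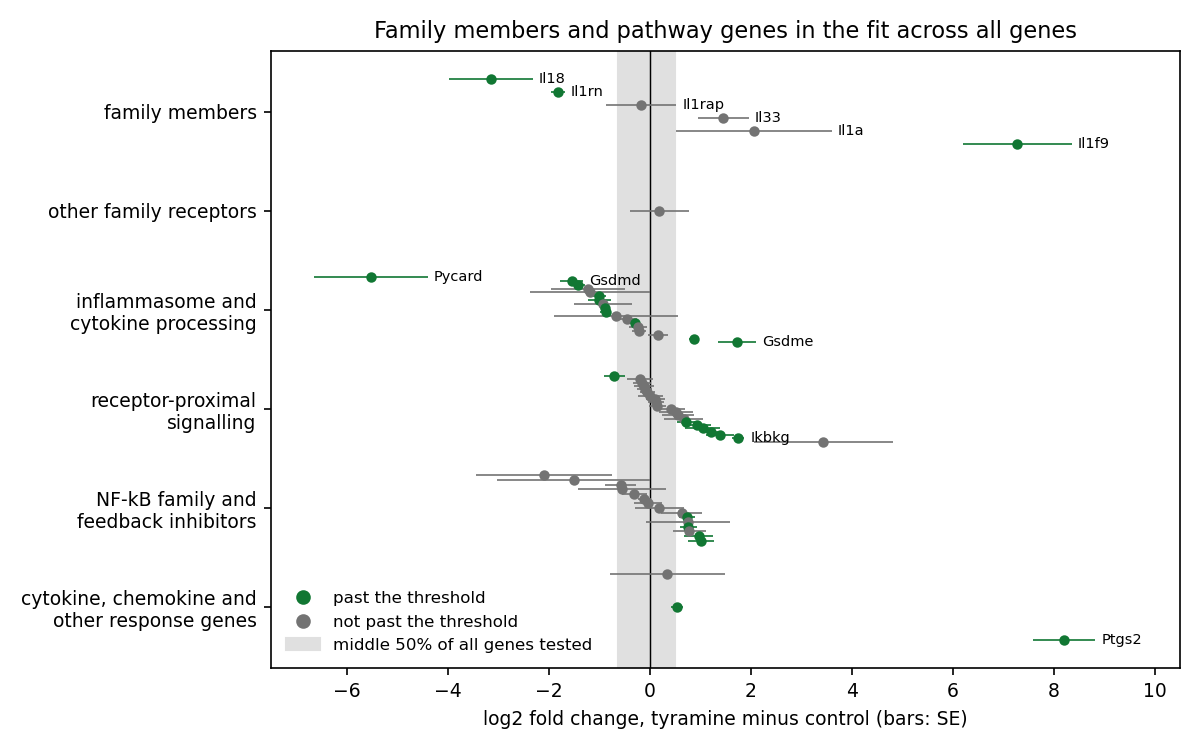
Log2 fold change (tyramine minus control, bars are SE) of the 6 tested family members and of the tested genes in 5 pathway lists; green points passed an edgeR adjusted p of 0.05, and the grey band holds the middle 50% of all genes tested, from -0.63 to 0.49. Il1f9 and Ptgs2 lie farthest to the right, and Pycard lies farthest to the left among genes of processing.

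Some squamous epithelial markers rose and others were lower in the libraries where Il1f9, a gene known from squamous cells, was higher. Of 13 such markers 9 were tested, and 4 of these rose (Krt5, Krt6a, Krt6b and Sprr1a). Another 1, the desmosomal cadherin gene Dsg3, fell from 23.6 ± 1.52 to 1.12 ± 1.2 CPM, and 4 did not pass. Over all genes tested 25.8% passed, 12.5% rising and 13.3% falling, and the groups did not overlap for 44.5%. The cornified envelope gene Lor (134 counts over the controls, 7 over the tyramine libraries) and the keratin gene Krt15 (62 and 11) did not pass, nor did Ivl and Krt14, and Krt17 (31 and 12) had too few counts to be tested. Lor, Krt15 and Krt17 were each lower in every tyramine library than in any control, and Krt14 had a log2 fold change of 0.31. Leaving out 1 library moved Krt5 from 8.07 to 8.81 (control replicate 1), Krt6a from 9.22 to 10.07 (control replicate 2) and Dsg3 from -4.38 to -5.73 (tyramine replicate 2) on the log2 scale. Sprr1a was not past the threshold without control replicate 1, 2 or 3 (log2 fold changes of 1.65, 1.52 and 1.28) or tyramine replicate 3 (0.9). The summed level of the 13 squamous markers was 35.8 to 40.5 CPM in controls and 542 to 1000 CPM with tyramine, while Sprr1b, Krt13 and the basal-cell factor gene Trp63 had at most 12 counts in any library. Of 8 epithelial markers, all tested, 2 rose (Krt18 1.59-fold and Cdh1 1.31-fold) and 4 fell (Epcam 1.36-fold, Krt19 1.59-fold, Vil1, a microvillus protein gene, 2.69-fold and Cdx2, an intestinal identity factor gene, 3.46-fold), while Krt8 and Cldn7 did not pass. The part of these differences in the family's values was not tested.

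The genes whose profile over the 6 libraries was nearest to a member's were found from centred log2 CPM, by root mean square difference among 9087 genes. For Il1rn they were Ckmt1 and Sord, each 0.1 away, and for Il18 Sox6 and Shmt1 at 0.32 and 0.41. The nearest to Il33 were Ripor1 at 0.26 and Pik3r3 at 0.3. Il1f9 had no close match, its nearest being Adh7 at 0.91 and Krt6b at 1.35. For Il1a they were S100pbp at 0.78 and Sun2 at 0.8, and for Il1rap Mppe1 at 0.26 and Crocc at 0.35. All profiles share the same 6 libraries and are dominated by the group difference, so likeness here describes only these libraries.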

How the data were processed

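Total RNA was made into stranded mRNA libraries with a kit that adds molecular identifiers, per the labels' protocols. The submitters' processing notes name the genome build mm10 and the aligner STAR 2.5.3a, and the counting program, annotation, strand setting and use of identifiers are not stated there. The authors deposited raw counts per gene symbol, 1 column per library, matched to samples by title.

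Genes were filtered with filterByExpr (minimum count 10, minimum total 15), scaled by TMM and tested with edgeR 4.0.16 (R 4.3.3), a robust quasi-likelihood fit with group as the only term, with Benjamini-Hochberg adjustment over all genes tested. Each SE was taken as log2 fold change over the square root of F. The procedure was tested on simulated data. The members, pathway lists and marker lists were chosen with earlier results of these data known. Named genes were all members, up to 4 called genes per pathway list by p (or the tested gene with the smallest p), and the 2 nearest profiles per member (log2 CPM with a prior count of 2, candidates averaging at least 2); other genes were singled out with their values in view. Positions and exon lengths are from GENCODE M21 (GRCm38, the build mm10), matched by symbol. Alternatives were RLE size factors, library totals, no filter, DESeq2 1.42.0, a replicate block, each library left out and halved counts.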

Additional observations from a re-analysis of the deposited data

How the results depend on the processing

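The number of genes past the threshold, 3127, was 1977 to 3307 with 1 library left out, with 934 to 1510 rising and 1035 to 1797 falling, the lowest of each from leaving out a control. The other settings gave 2594 (replicate block) to 4087 (DESeq2). With library totals as the only scaling, 1221 genes rose and 1804 fell, against 1518 and 1609. Of the family members 2 to 3 passed with 1 library left out, 4 with DESeq2 (Il33 added) and 3 under each other setting. Pathway genes rising numbered 9 to 15 with 1 library left out, against 14, and falling 7 to 11, against 9. Il1f9, Il1rn, Il18, Il33 and Il1a kept their direction under all 12 alternatives, whereas Il1rap changed sign without control replicate 2 (0.18) or tyramine replicate 2 (0.21) or 3 (0.09) and passed under none. Replicate numbers match between groups, but no shared deviation was seen in same-numbered libraries (correlations -0.019, -0.01 and 0.011). Whether these libraries share an animal or culture is not stated, and the correlations cannot decide it. With the replicate block 3 family members passed, and 12 pathway genes rose and 7 fell, 0 of the 7 receptor-proximal. Rela, Casp8, Irak1 and Sprr1a were not past the threshold with it (edgeR adjusted p = 0.066, 0.079, 0.083 and 0.08). Depth limits Il1b, Il1r1 and Il1rl2, for which no change could be detected.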

Other observations

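Several family genes had all their counts of 1 group in a single library. Il18r1 had 24 counts in control replicate 1, Il1f9 24 and Il1r1 17 in control replicate 3, and Il18rap 9 in tyramine replicate 2, with 0 counts in each other library of the same group. Over the whole table a stricter rule was used, which Il1f9, Il1r1 and Il18rap do not meet. By it, 269 of 17057 genes with any count had at least 20 counts in 1 library and at most 2 in the other 5 together. They were spread over all 6 libraries, from 29 in control replicate 3 to 57 in tyramine replicate 3. Among genes of the pathway, Irak3, which encodes an inhibitory kinase-like protein of the receptor complex, was counted 2, 9 and 3 times in the controls against 0, 151 and 58 times with tyramine. Map3k8, a kinase gene of the same pathway, was counted 7, 0 and 22 times in the controls against 85, 159 and 83 times with tyramine. It was tested and did not pass (log2 fold change 3.44, SE 1.38, edgeR adjusted p = 0.098). Nfkbid, an NF-kB regulator gene, was counted 43, 19 and 1 times in the controls and not at all with tyramine. Tnf had its counts almost wholly in replicate 3 of each group, 35 in control and 110 with tyramine.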
